A study of Mus musculus with 6 samples.

Results

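The genes described here are those named as replication-dependent core histones and linker histones of the mouse. They were taken from the deposited count table by name, as every row whose symbol begins Hist followed by a cluster number and h, or H1f, H2ac, H2bc, H3c or H4c followed by a number, and that held at least 20 counts summed over the 6 libraries. Of 56674 rows, 72 matched by name and 48 passed the minimum: 5 linker histone H1 genes, 13 H2A, 16 H2B, 3 H3 and 11 H4 genes. RefSeq lists 1 of the 48, H2ac14, as a pseudogene. The other 24 named rows stayed outside, 9 of them with 0 counts and 15 with 1 to 19. Members were thus chosen by name and selected on their counts summed over both groups, and the rule uses no difference between the diets, but the set was proposed with earlier results of these data known. At the edge of the minimum, H1f1 with 28 counts, H3c6 with 32 and H4c6 with 33 lay just inside, and H2ac15 with 18, H4c17 with 18 and H2ac5-ps with 17 just outside.

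The libraries were made from liver RNA of male C57BL/6 mice kept to 71 weeks of age at 18 to 22 °C. The control group of 3 libraries came from mice on normal chow. The PP-MP group of 3 libraries came from mice whose chow contained polypropylene microplastic, and the series addressed what long feeding of it does to gene expression in the liver. The treatment protocol text names PS-MP for all 6 libraries, while titles and characteristics name normal chow or PP-MP, and the groups follow the latter. The sources used here do not give dose, particle size or the start of feeding, and no label says that the 3 libraries of a group were separate animals, so p-values measure the spread between these libraries, which may be technical.

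A nucleosome holds pairs of the core histones H2A, H2B, H3 and H4, and a linker histone H1 binds the DNA where it enters and leaves. Most of these proteins come from clustered, intron-poor genes that are transcribed when a cell copies its DNA. Their messages end in a conserved stem-loop in place of a poly(A) tail. SLBP binds that stem-loop, and the U7 particle with its own Lsm10 and Lsm11 proteins guides the cut behind it. Replication-independent variants such as H2A.Z are made outside S phase from polyadenylated messages, and some clustered genes also give a polyadenylated form, in particular in differentiated cells. The adult liver divides little. The RNA here was selected for poly(A) before library construction, so the counts below are those of messages that carried a tail or came through the selection without one.

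The stem-loops show which end the gene models carry. In the models of GENCODE M21 (GRCm38), 47 of the 48 members could be matched, and 33 of these, 70.2%, held the 16-base stem-loop in a transcript, against 134 of 55450 genes, 0.242%. They are printed for members of each family, with the stem-loop in capitals and up to 5 bases on each side in lower case, 5′ to 3′ on the gene's strand:
H1f2: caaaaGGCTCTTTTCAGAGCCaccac
H2ac20: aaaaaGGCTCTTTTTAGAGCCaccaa
H2ac6: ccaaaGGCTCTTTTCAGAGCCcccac
H2bc8: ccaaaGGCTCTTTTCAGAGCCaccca
H2bc12: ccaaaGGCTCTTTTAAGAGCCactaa
H3c15: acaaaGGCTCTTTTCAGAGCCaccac
H4c8: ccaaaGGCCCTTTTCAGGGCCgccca
The letters of the stem differ between H4c8 and the others shown. In H1f2 the stem-loop starts 24 bases after the stop codon and 840 bases of the model follow it, so this model runs on past the usual end. In H2bc8 155 bases follow, and in H2ac6 2010.

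H2bc4, the member with the most counts, is one of the 14 matched members without the element. Its model has a first exon of 423 bases that ends 9 bases after the stop codon, and a second exon of 733 bases, all non-coding, and no stem-loop in the spliced transcript. H2bc21 and H2bc23 lack it too and have long non-coding parts. In 7 of the 14 the model has under 10 non-coding bases, so the stem-loop could not be in it. H2bc24 matched no model and is described by its counts only.

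Core histone genes often stand head to head and share one control region. The region between the RefSeq start sites of H2ac6 and H2bc4 is shown because these neighbours share it and differed widely in level. It lies on chromosome 13 in GRCm38.p6 at chr13:23683960-23684198 and is printed 5′ to 3′ on the minus strand, the strand of H2ac6, with matches to the TATAAA box, the CCAAT box and ATTTGCAT on either strand in capitals:
H2ac6 and H2bc4: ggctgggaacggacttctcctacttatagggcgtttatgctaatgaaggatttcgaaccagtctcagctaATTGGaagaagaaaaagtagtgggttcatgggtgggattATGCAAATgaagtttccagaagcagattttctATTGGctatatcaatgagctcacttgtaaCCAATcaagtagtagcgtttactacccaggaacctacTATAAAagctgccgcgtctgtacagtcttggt
Its 239 bases hold 3 CCAAT, 1 ATTTGCAT and 1 TATAAA. Over the 250 bases before each RefSeq start, CCAAT was found in 12 of 12 H2A and 14 of 14 H2B promoters against 33.8% of all promoters, and ATTTGCAT in 5 of the 12 and 6 of the 14 against 1.60%. In H4 promoters CCAAT was found in 3 of 10, and ATTTGCAT in 0 of the 5 H1, 2 H3 and 10 H4 promoters. H2bc4 is not among the promoters counted. TATAAA was found in 46.5% of the members' promoters and 12.4% of all promoters. These are letter matches and describe no binding. Head-to-head neighbours such as H2ac8 and H2bc8 share bases, so 1 match can count for both genes, and H2bc6 has 2 of the promoters counted. Counts of H2bc4 exceeded those of H2ac6 by 187 to 674 times in the 6 libraries. These are raw counts, over models of 1156 bases for H2bc4 and 2482 for H2ac6. The H2ac6 model holds the stem-loop and the H2bc4 model does not. As the RNA was selected for poly(A), the ratio does not measure transcription from the shared region.

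Library totals ran from 68357478 to 112566641 counts. The 48 histone genes took 0.0178% to 0.0207% of them. RNA from the ribosomal repeat gene Rn18s-rs5 took 2.92%, 11.2% and 1.15% of the counts in control libraries 1 to 3 and 0.655% to 0.750% in the PP-MP libraries. Levels are CPM (counts for every 1000000 counted in the library) with TMM scaling, which sets libraries on a common scale from the bulk of genes, and fold changes are PP-MP over control. The scaling matters here: with library totals in its place, the median log2 fold change over all 18284 genes tested moved from 0.03 to 0.26. In bulk liver, fewer cells with a message and less message per cell cannot be told apart.

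H1f2 and H2bc4 made up 82.1% of all histone counts, and between 80.7% and 83.9% in each library. Per kilobase of exon in the controls, H2bc4 stood at 82.2 ± 9.4 CPM, H1f2 at 45.7 ± 6.86 and H2bc8 at 19.9 ± 2.8 (SD, n = 3). No other matched member named here passed 4 CPM per kilobase in the controls: H4c8 stood at 3.04 ± 0.443 CPM per kilobase and H2bc15 at 2.58 ± 0.224 (SD, n = 3).

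**Figure D1:**
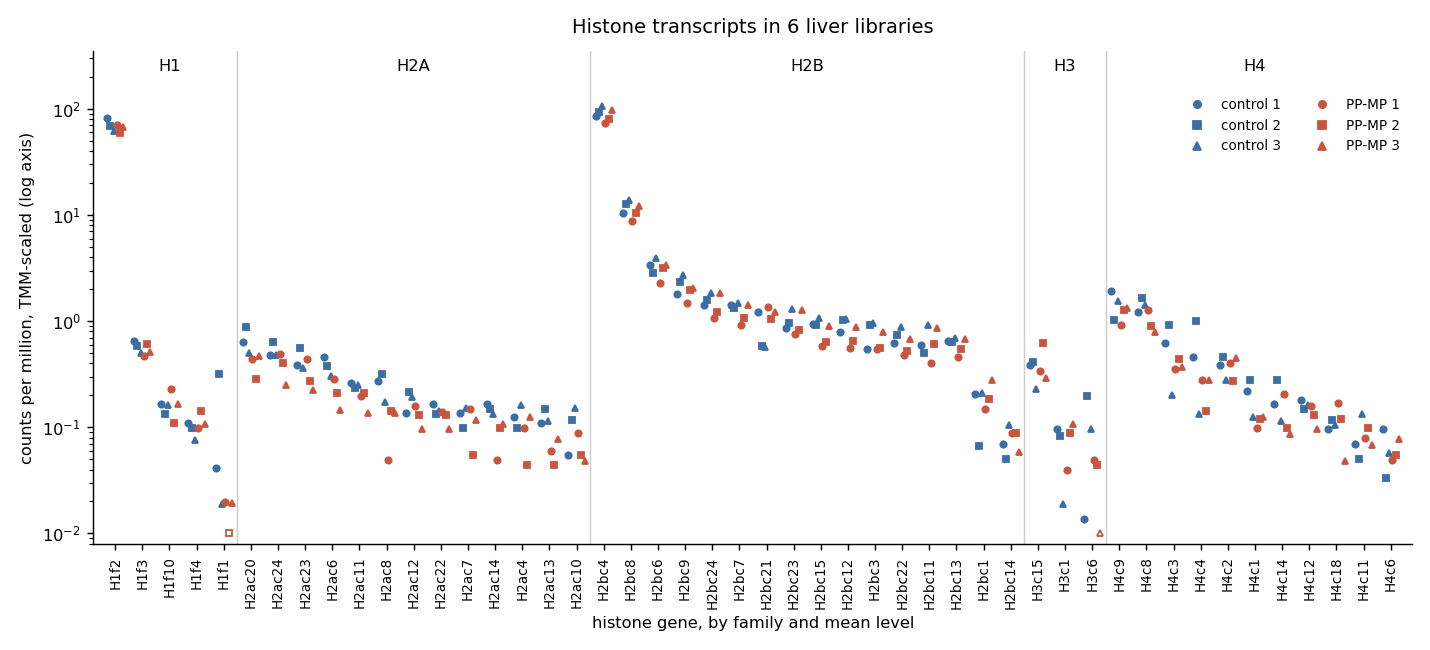
CPM with TMM scaling (y axis, log scale) for the 48 histone genes (x axis, by family and mean level), 1 point per library, with control in blue and PP-MP in red. Open points at the bottom stand for a library with 0 counts. H1f2 and H2bc4 lie between 58.8 and 107 CPM in every library, and most other genes lie below 2.

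The diet comparison called no histone gene. Of the 48 members, 38 had enough counts to be tested (H1 3, H2A 11, H2B 15, H3 1, H4 8). The other 10 held 28 to 58 counts in all. At an adjusted p under 0.05 in edgeR's quasi-likelihood test, 0 of the 38 were called, against 0.0109% of all genes tested (2 of 18284). At an unadjusted p under 0.05, 0 of the 38 passed, against 13.9% of all genes. DESeq2 called 0 of the 38 and 4.26% of all genes, and limma-voom called 0 of the 38 and 0.00547% of all genes. The smallest adjusted p in edgeR was 0.40.

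The fitted values leaned to one side. Of the 38, 33 had a fitted fold change below 0, against 47.4% of all genes, and the median log2 fold change was -0.35, which is 0.38 below that of all genes (-0.38). Among the 33, 11 were H2A and 13 H2B genes. Many of these share sequence, so a read could fit several rows and the signs are not separate observations. With library totals, 26 of the 38 were below 0 against 25.5% of all genes, the median was -0.12, and the distance to all genes was again -0.38. In 6 of the 38 every PP-MP library lay below every control library, against 9.79% of all genes, and in 0 of them every PP-MP library lay above, against 12.2%. With library totals the lower count was 1 of 38, against 2.59% of all genes. For 11 of the 38 the 95% interval of the fold change stayed within a factor of 2 either way, against 46.3% of all genes, so for the other 27 these libraries leave room for a 2-fold difference.

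**Figure D2:**
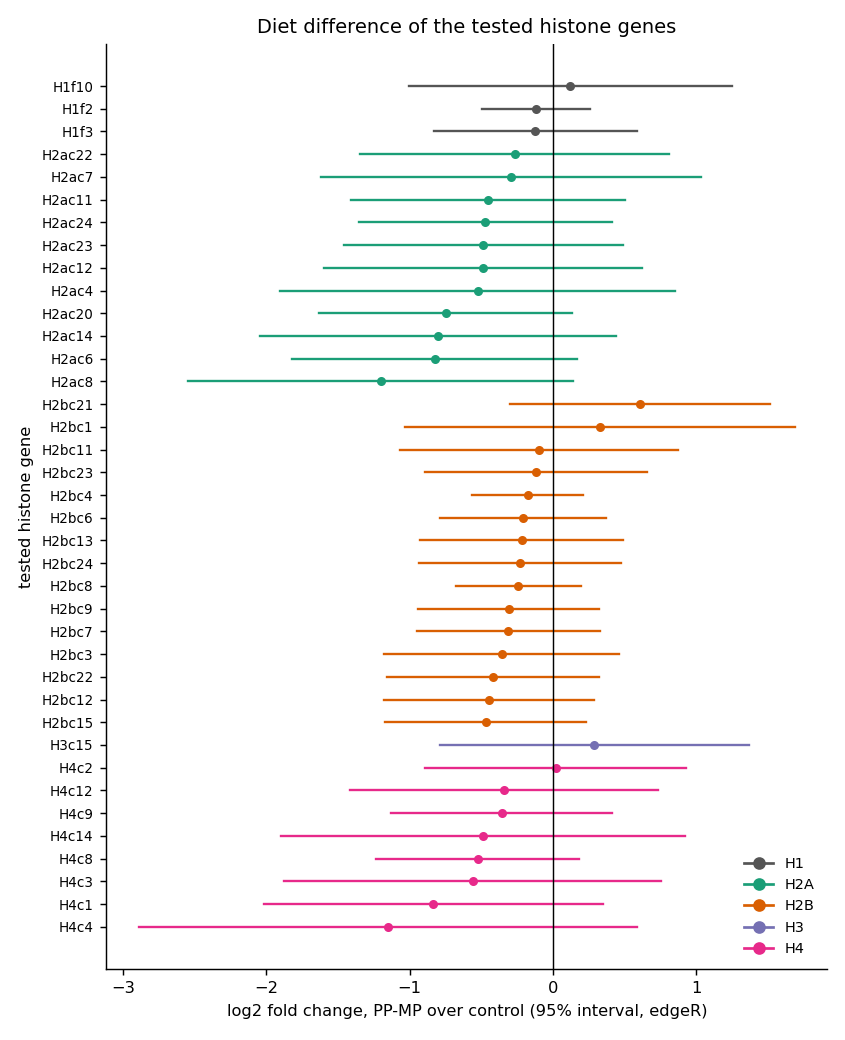
Log2 fold change of PP-MP over control (x axis) with its 95% interval from edgeR for the 38 tested histone genes (y axis), coloured by family. Every interval crosses 0, and 33 of the 38 points lie to the left of it.

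Linker histones compact the fibre between nucleosomes. H1f2 was read at 82.8, 69.6 and 61.6 CPM in control libraries 1 to 3 and at 71.3, 58.8 and 67.1 CPM in PP-MP libraries 1 to 3. Its groups overlapped, with the highest value in control 1 and the lowest in PP-MP 2. The log2 fold change was -0.12 ± 0.16 (SE, adjusted p = 0.76, edgeR), with a 95% interval from -0.49 to 0.26. Its sign turned to 0.11 with library totals and to 0.02 without control 1.

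H1f3, another somatic linker histone, stood at 0.648, 0.581 and 0.497 CPM in controls and 0.466, 0.604 and 0.512 CPM in PP-MP libraries. These groups overlapped throughout. The log2 fold change was -0.12 ± 0.30 (SE, adjusted p = 0.87, edgeR), and 0.11 with library totals. H1f10, encoded outside the clusters, overlaps 2 other gene models and ranged from 0.110 to 0.228 CPM over the 6 libraries. H1f4, whose model overlaps that of H2bc6 and a predicted gene on its own strand, ranged from 0.076 to 0.143 CPM. Of the 28 counts of H1f1, 19 fell in control 2. H1f0, the linker variant of non-dividing cells, has a name that matches but is listed at 0 in all 6 libraries. Whether its reads were counted under that row was not tested, so no level is given for it.

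The H2A genes were the family in which the groups came apart most often, though none was called. H2A pairs with H2B in the dimers that flank the H3-H4 core. Their summed level was 3.39, 3.96 and 3.13 CPM in controls and 2.64, 2.09 and 2.03 CPM in PP-MP libraries, so the highest PP-MP sum lay below the lowest control sum. The log2 ratio of the group means was -0.63, and -0.40 with library totals. All 11 tested H2A genes had a fitted fold change below 0, from -1.20 to -0.27, with 0 called and 0 at an unadjusted p under 0.05 in edgeR. In 5 of the 11 every PP-MP library was below every control library (9.79% of all genes), and in 1 of the 11 with library totals (2.59%).

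H2ac8 was read at 0.276, 0.315 and 0.172 CPM in controls and at 0.050, 0.143 and 0.135 CPM in PP-MP libraries. All 3 PP-MP values lay below the lowest control. Its log2 fold change was -1.20 ± 0.56 (SE, adjusted p = 0.40, edgeR), the lowest fitted value of the 38, on 89 counts in all.

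H2ac20, from the cluster on chromosome 3, was read at 0.634, 0.879 and 0.507 CPM in controls and at 0.436, 0.285 and 0.474 CPM in PP-MP libraries. The groups did not overlap, with PP-MP 3 closest to control 3. It had a log2 fold change of -0.75 ± 0.37 (SE, adjusted p = 0.42, edgeR).

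H2ac6, the neighbour of H2bc4, stood at 0.455, 0.382 and 0.306 CPM in controls and 0.287, 0.209 and 0.145 CPM in PP-MP libraries. Its groups did not overlap, with PP-MP 1 next to control 3. On the log2 scale the fold change was -0.83 ± 0.42 (SE, adjusted p = 0.43, edgeR). H2bc4, on the other side of the shared region printed above, had -0.18 ± 0.16, and the difference between the 2 genes was not tested.

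H2ac14, listed as a pseudogene, stood at 0.165, 0.149 and 0.134 CPM in controls and 0.050, 0.099 and 0.106 CPM in PP-MP libraries, and was the only tested member whose groups stayed apart with both scalings. The fitted log2 fold change was -0.80 ± 0.52 (SE, adjusted p = 0.52, edgeR), on 60 counts. H2ac24, the H2A gene with the second highest level, stood at 0.482, 0.630 and 0.478 CPM in controls and 0.485, 0.406 and 0.251 CPM in PP-MP libraries. PP-MP 1 lay inside the control range.

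Every one of the 13 H2A models overlaps another model on the opposite strand in GENCODE M21. The library kit keeps strand, but no source used here names the strand setting of the counting, so reads of these pairs may not be separated. H2A genes are also near copies of each other: a median of 79.7% of the 50-base windows of a matched H2A gene occurred in another histone member, so a read could often fit several rows.

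The H2B genes carried most of the histone counts, 60.3%, and varied together from library to library. Their summed level was 110, 121 and 138 CPM in controls and 93.6, 104 and 126 CPM in PP-MP libraries. The groups overlapped, and the log2 ratio of the means was -0.19, turning to 0.04 with library totals. Of 15 tested H2B genes, 13 had a fitted fold change below 0 and 0 were called. Apart from H2bc21, 13 of the 15 H2B genes had their highest level in control 3, and 13 of the 15 their lowest in PP-MP 1. These shares were not computed over all genes.

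H2bc4 was read at 85.2, 93.3 and 107 CPM in controls and at 73.6, 80.8 and 97.7 CPM in PP-MP libraries. PP-MP 3 lay above control 1 and control 2. edgeR gave a log2 fold change of -0.18 ± 0.16 (SE, adjusted p = 0.64, edgeR), with a 95% interval from -0.57 to 0.21, and 0.05 with library totals. H2bc8, the second H2B gene by level, stood at 10.4, 12.7 and 13.8 CPM in controls and 8.82, 10.4 and 12.1 CPM in PP-MP libraries, again with overlap, and its log2 fold change was -0.24 ± 0.18 (SE, adjusted p = 0.58, edgeR).

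H2bc15 was read at 0.937, 0.929 and 1.08 CPM in controls and at 0.585, 0.637 and 0.909 CPM in PP-MP libraries. It was the single H2B gene whose groups did not overlap, and with library totals they overlapped. Its log2 fold change was -0.47 ± 0.29 (SE, adjusted p = 0.51, edgeR). H2bc12 stood at 0.785, 1.03 and 1.05 CPM in controls and 0.565, 0.648 and 0.889 CPM in PP-MP libraries, and H2bc22 had 0.620, 0.746 and 0.889 CPM against 0.476, 0.527 and 0.686 CPM. In both of these the PP-MP 3 value lay inside the control range.

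H2bc21 had a different order of libraries. It is an H2B gene of the chromosome 3 cluster with a described polyadenylated message. It was read at 1.23, 0.581 and 0.574 CPM in controls and at 1.36, 1.04 and 1.23 CPM in PP-MP libraries. Control 1 lay with the PP-MP libraries and the other control libraries at about the same low level. The log2 fold change was 0.61 ± 0.38 (SE, adjusted p = 0.51, edgeR), with a 95% interval from -0.30 to 1.51, the highest fitted value of the 38. Without control 1 it was 1.08.

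The coding starts of 4 H2B genes show how near the copies are. The first 90 coding bases are printed from GENCODE M21 transcripts, 5′ to 3′ from the start codon, with capitals where a base differs from H2bc4 at the same position:
H2bc4: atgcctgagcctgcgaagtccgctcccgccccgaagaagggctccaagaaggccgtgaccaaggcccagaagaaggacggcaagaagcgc
H2bc8: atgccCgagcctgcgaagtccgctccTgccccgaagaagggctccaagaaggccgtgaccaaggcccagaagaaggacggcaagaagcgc
H2bc13: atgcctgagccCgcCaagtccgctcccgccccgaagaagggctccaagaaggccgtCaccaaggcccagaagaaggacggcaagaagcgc
H2bc21: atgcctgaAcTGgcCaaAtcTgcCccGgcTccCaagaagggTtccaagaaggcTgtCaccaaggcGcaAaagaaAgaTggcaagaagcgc
Over all 378 coding bases, H2bc8 differed from H2bc4 at 5 positions, H2bc13 at 6 and H2bc21 at 48. H2bc8 shares an unbroken run of 305 bases with H2bc4 and 256 windows of 50 bases, whereas H2bc21 shares no such window and its longest common run is 39 bases.

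Counts of the H2B genes with at least 300 counts, H2bc21 apart, kept a steady proportion to H2bc4. H2bc8 had 12.2%, 13.7% and 12.9% of the H2bc4 count in controls and 11.97%, 12.9% and 12.4% in PP-MP libraries. Among the 12 other H2B genes with at least 300 counts, H2bc8 included and H2bc21 apart, the highest of the 6 proportions exceeded the lowest by a factor of 1.14 to 1.65, with a chi-square per degree of freedom of 0.252 to 2.81 against a constant proportion. H2bc24, which matched no model, is one of the 12. For H2bc21 the factor was 3.43 and the chi-square per degree of freedom 17.6. Below that count, H2bc1 shares 106 windows with H2bc4 and had 4.03 and 1.69, on 102 counts. Genes that share 0 windows went both ways. H1f3 had 1.63 and 1.93 on 289 counts, and H4c6 had 3.19 and 0.639 on 33 counts. With more counts, H4c9 had 2.05 and 6.87 on 710, and H4c8 2.20 and 8.38 on 629. H1f2 had 1.68 and 152 on 36150 counts. A low count leaves little room to see a departure from a constant proportion. H2bc21 had 1.44%, 0.622% and 0.538% of the H2bc4 count in controls and 1.84%, 1.29% and 1.26% in PP-MP libraries. Across the 14 matched H2B genes other than H2bc4, the number of shared windows and the summed count had a Spearman rho of 0.52, and 0.69 over 13 genes without H2bc21, as a description across genes that share libraries and sequence. No source used here says how reads that fit several rows were counted, so each H2B row other than H2bc4 and H2bc21 is uncertain, and the part of misplaced H2bc4 reads in them was not tested.

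**Figure D3:**
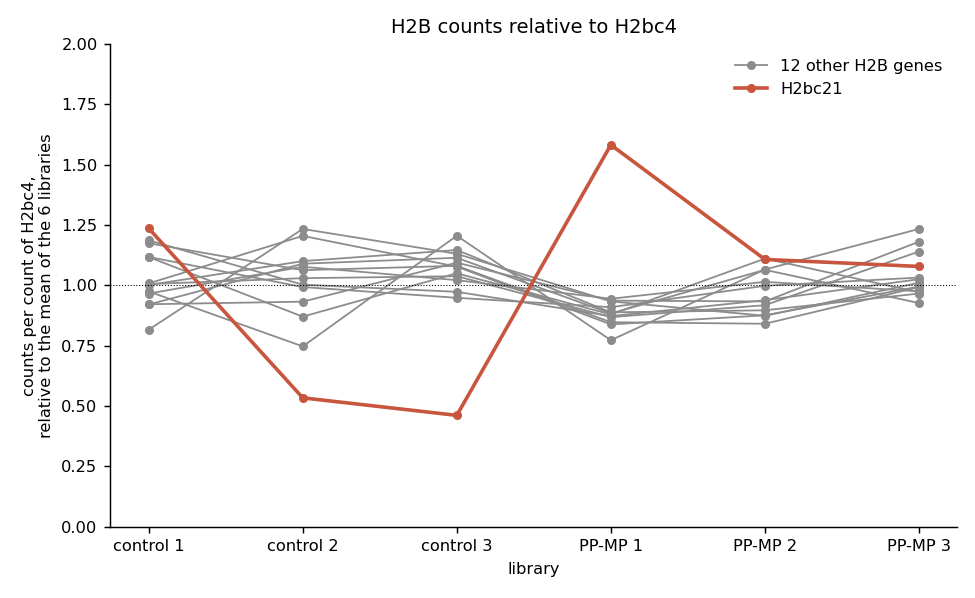
Counts of 13 H2B genes divided by the count of H2bc4 in the same library, relative to the gene's mean over the 6 libraries (y axis, linear from 0), for each library (x axis). Lines join the values of 1 gene and carry no order. The 12 grey genes stay near 1, and H2bc21 in red spans a factor of 3.43.

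H3 carries the tail with most of the well-known modified lysines. Its clustered genes were almost unread, with 3 members and 0.261% of the histone counts. H3c15 was read at 0.386, 0.415 and 0.229 CPM in controls and at 0.337, 0.626 and 0.290 CPM in PP-MP libraries, with PP-MP 2 above all others. It had a log2 fold change of 0.29 ± 0.45 (SE, adjusted p = 0.80, edgeR), and -0.12 without PP-MP 2. H3c1 with 37 counts and H3c6 with 32 were too low to test.

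H4 pairs with H3 at the centre of the nucleosome, and its genes encode the same protein. Their summed level was 5.44, 5.95 and 4.27 CPM in controls and 4.01, 3.64 and 3.72 CPM in PP-MP libraries. These sums did not overlap with TMM scaling, but with library totals they overlapped. The log2 ratio of the group means was -0.46, and -0.23 with library totals. Of 8 tested H4 genes, 7 had a fitted fold change below 0, 0 were called, and in none did the single gene's groups separate.

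H4c8 was read at 1.23, 1.64 and 1.42 CPM in controls and at 1.29, 0.900 and 0.783 CPM in PP-MP libraries. PP-MP 1 lay just above control 1. On the log2 scale the fold change was -0.53 ± 0.30 (SE, adjusted p = 0.47, edgeR). H4c9, with the highest H4 level, had 1.93, 1.03 and 1.55 CPM in controls and 0.921, 1.26 and 1.33 CPM in PP-MP libraries, and its groups overlapped widely (log2 fold change -0.36 ± 0.32, SE).

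H4c4 was read at 0.455, 0.995 and 0.134 CPM in controls and at 0.277, 0.143 and 0.280 CPM in PP-MP libraries. The controls alone spread over more than the whole PP-MP range, with control 2 on top and control 3 at the bottom. The fitted log2 fold change was -1.15 ± 0.73 (SE, adjusted p = 0.51, edgeR). Without control 2 it was -0.29, and limma-voom gave -0.58. H4c1 had 0.220, 0.282 and 0.124 CPM in controls and 0.099, 0.121 and 0.126 CPM in PP-MP libraries, where control 3 lay inside the PP-MP range.

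Control 2 held the top value of many H2A, H3 and H4 genes, but of no H2B gene. Of the 27 H2A, H3 and H4 members, 13 had their highest level in control 2, and 12 had their lowest in PP-MP 3. Of the 16 H2B members, 0 had their highest level in control 2 and 13 in control 3. The share over all genes was not computed. Many members share sequence, so they are not separate observations. Control 2 also held the most small RNA that carries no poly(A) tail. Summed over 24 small RNAs of that kind, leaving out Rn18s-rs5 and the long RNA Malat1, the level was 431, 2637 and 218 CPM in controls and 69.6, 81.5 and 101 CPM in PP-MP libraries, a range of 37.9 times. Malat1, a nuclear RNA whose end is a triple helix, did not follow them, with 165, 414 and 154 CPM in controls and 450, 358 and 408 CPM in PP-MP libraries. The summed level of the 27 H2A, H3 and H4 genes was 9.33, 10.6 and 7.74 CPM in controls and 7.07, 6.49 and 6.15 CPM in PP-MP libraries, a range of 1.73 times. With TMM scaling, in both sums all controls lay above all PP-MP libraries and control 2 was the highest. With library totals the sums of the 27 genes overlapped between the groups.

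Rmrp, the RNA of the RNase MRP particle, stood at 6.46, 37.0 and 3.59 CPM in controls and 1.24, 1.19 and 0.967 CPM in PP-MP libraries. edgeR gave a log2 fold change of -3.79 ± 0.91 (SE, adjusted p = 0.22, edgeR). Rpph1, the RNA of RNase P, stood at 12.99, 86.3 and 8.78 CPM in controls and 3.24, 2.69 and 2.56 CPM in PP-MP libraries. Of 19 tested RNAs without a tail, 0 were called by edgeR, and 17 had an unadjusted p under 0.05 with a fold change below 0, against 5.81% of all genes. Of the 19, DESeq2 called 13, against 4.26% of all genes, and it gave no adjusted p for Vaultrc5 and Rnu12. Their median log2 fold change was -3.15, and -1.70 without control 2, against -0.35 and -0.29 for the histone members. Without control 2 the value of Rmrp was -2.13 and that of Rpph1 -1.92. H2bc4 and H1f2 did not have their highest level in control 2. The part of carried-over RNA without a tail in the histone values was not tested. Without control 2, 0 histone genes were called, while 92 of 19277 genes, 0.477%, were called.

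**Figure D4:**
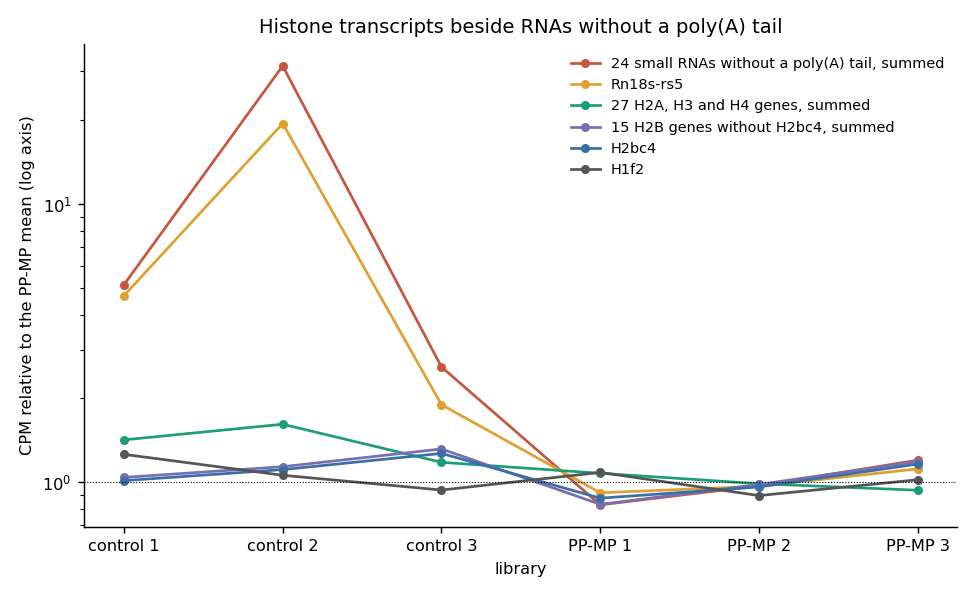
Summed or single CPM relative to the mean of the PP-MP libraries (y axis, log scale) in each library (x axis), for 24 small RNAs without a poly(A) tail, Rn18s-rs5, the 27 H2A, H3 and H4 genes, the 15 H2B genes without H2bc4, H2bc4 and H1f2. Lines join 1 quantity and carry no order. RNAs without a tail reach 31.4 times the PP-MP mean in control 2, where the H2A, H3 and H4 sum reaches 1.62 times.

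Genes that process histone messages gave no call in edgeR. Of 19 tested factors of the 3′ end and the stem-loop, 0 were called, 3 had an unadjusted p under 0.05 with a fold change below 0 (5.81% of all genes) and 0 with one above (8.05%), and the median log2 fold change was -0.12 (all genes 0.03). Srrt, which links the cap complex to 3′ processing, was read at 27.1, 26.2 and 22.4 CPM in controls and 13.3, 16.04 and 16.7 CPM in PP-MP libraries. Those groups did not overlap. Its log2 fold change was -0.72 ± 0.15 (SE, adjusted p = 0.19, edgeR), with an adjusted p of 0.0032 in DESeq2.

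Lsm10, a subunit of the U7 particle, was read at 16.4, 15.1 and 15.7 CPM in controls and 11.3, 10.2 and 11.4 CPM in PP-MP libraries, also without overlap. It had a log2 fold change of -0.52 ± 0.13 (SE, adjusted p = 0.23, edgeR), with an adjusted p of 0.015 in DESeq2. Lsm11, its partner in the particle, had -0.55 ± 0.20, and Eri1, the exonuclease that trims the stem-loop, -0.31 ± 0.17 (log2 fold change, SE). DESeq2 called Srrt and Lsm10, 2 of the 19 tested genes of this list, against 4.26% of all genes.

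Genes of DNA replication and S phase, when clustered histone genes are read, showed no call in edgeR either. Of 37 tested, 31 had a fitted fold change below 0, 7 had an unadjusted p under 0.05, all 7 below 0 (5.81% of all genes), and the median log2 fold change was -0.36. With library totals that median was -0.12, against 0.26 for all genes. E2f1, which drives S-phase transcription, was read at 4.93, 4.79 and 5.55 CPM in controls and 1.96, 2.55 and 2.03 CPM in PP-MP libraries. All PP-MP values were well below all controls. On the log2 scale the fold change was -1.22 ± 0.20 (SE, adjusted p = 0.18, edgeR). Fen1, the flap nuclease, had -0.71 ± 0.21, Rrm2, a subunit of ribonucleotide reductase, -0.67 ± 0.22, and Lig1, the replicative ligase, -0.65 ± 0.25 (log2 fold change, SE). The other 6 of the 37 were fitted above 0, among them Birc5 at 0.90 ± 0.45, Ccne2 at 0.87 ± 0.43 and Mki67 at 0.15 ± 0.80 (log2 fold change, SE). DESeq2 called E2f1 and Fen1, 2 of the 37, against 4.26% of all genes.

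Of 21 tested histone chaperones, 0 were called by edgeR, 3 were below 0 (5.81% of all genes) and 1 above (8.05%) at an unadjusted p under 0.05, and the median log2 fold change was 0.02. Chaf1a, the large subunit of the replication-coupled assembly factor CAF-1, was read at 5.92, 3.42 and 5.65 CPM in controls and 2.11, 2.48 and 1.85 CPM in PP-MP libraries, without overlap. The fitted log2 fold change was -1.22 ± 0.28 (SE, adjusted p = 0.21, edgeR). Asf1b, a chaperone of new H3-H4, had -1.44 ± 0.42 and Rbbp4, the small CAF-1 subunit, -0.39 ± 0.13 (log2 fold change, SE). Atrx, which places H3.3, had 2.09 ± 0.70, with groups that overlapped. Chaf1b, another CAF-1 subunit, had 0.05 ± 0.36 (log2 fold change, SE), and 12 of the 21 chaperones were fitted above 0 and 9 below. DESeq2 called Chaf1a and Atrx, 2 of the 21, against 4.26% of all genes.

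Replication-independent variants of several families had a summed level of 352 to 385 CPM in controls and 302 to 337 CPM in PP-MP libraries. H3f3b and H3f3a had the highest levels, with control means of 124.6 and 90.7 CPM. The 48 members summed to 202 to 208 CPM in controls and 171 to 200 CPM in PP-MP libraries, and H1f10 is in both sums. As the RNA was selected for poly(A), these sums do not compare messages with and without a tail. Of 11 variants tested, 0 were called by edgeR or DESeq2 (0.0109% and 4.26% of all genes). At an unadjusted p under 0.05 in edgeR, 2 had a fold change below 0 (5.81% of all genes). The median log2 fold change of the variants was -0.36 (-0.13 with library totals). The list holds H4f16, an H4 gene, at -0.78 ± 0.59 (log2 fold change, SE). Whether H4f16 is replication-independent was not tested. H2az2 and H2az1, the H2A.Z genes, had -0.43 ± 0.16 and -0.36 ± 0.16, H2aj, a replication-independent H2A gene, -0.39 ± 0.16, and H2ax, the variant phosphorylated at DNA breaks, -0.41 ± 0.20 (log2 fold change, SE). Of the 6 tested members with a described polyadenylated form, the median was -0.15, and 0 were called.

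edgeR called 0 of the cell markers tested, against 0.0109% of all genes, and DESeq2 called 6, against 4.26%. Some of the summed marker levels did not overlap between the groups. The summed level of 8 macrophage markers was 104 to 114 CPM in controls and 139 to 539 CPM in PP-MP libraries, with 5 of 8 tested markers above 0 at an unadjusted p under 0.05, against 8.05% of all genes. For 8 neutrophil markers the sums were 1.501 to 2.16 and 3.10 to 25.6 CPM, and for 8 T and NK cell markers 5.63 to 7.95 and 3.83 to 5.35 CPM. In both the groups did not overlap with TMM scaling. The T and NK cell sum was lower in PP-MP libraries, as the H2A and H4 sums were. With library totals the T and NK cell sums overlapped between the groups. Sums for hepatocyte markers overlapped, at 64330 to 81914 and 69327 to 84689 CPM, as did those for B and plasma cells at 19.7 to 185 and 42.3 to 582 CPM, erythroid cells at 266 to 510 and 392 to 768 CPM, endothelial cells at 90.04 to 99.8 and 74.1 to 127 CPM, stellate cells at 317 to 354 and 298 to 500 CPM, and cholangiocytes at 15.8 to 33.9 and 14.6 to 23.3 CPM. Of all these markers only Epb42, an erythroid gene, was at 0 in every library. Their part in the histone values was not tested.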

How the data were processed

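RNA-seq counts per gene were deposited by the authors as raw counts, with no normalization seen in the values (whole numbers with totals that differ between libraries). Poly(A) selection and a directional kit were used per the labels' protocols. bcl2fastq and GRCm39 are named per the submitters' processing notes, and the sources used here do not name the aligner, the counter or the strand setting. All 6 columns were mapped to samples by their names, and no 2 libraries held the same values.

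Genes were tested with edgeR 4.0.16 in R 4.3.3 (TMM factors, filterByExpr by group, robust quasi-likelihood F test over 2 groups of 3, Benjamini-Hochberg adjustment over 18284 genes, threshold 0.05), checked on simulated data. In that simulation 200 genes of at least 1 CPM were changed, 41 genes were called, 1 of them falsely, and 56.1% of 4-fold changes were recovered. Of the histone members 10 reach that level, so an absent call leaves room for a difference. Control library totals were 75897165, 68357478 and 112566641 counts, and PP-MP totals 91936078, 81073738 and 100252360. In these libraries 3 counts equal 0.0267 to 0.0439 CPM, so members near that level have coarse values. SE is that of the log2 fold change, and intervals are at 95%. DESeq2 1.42.0, limma-voom 3.58.1, other scalings and filters, a replicate block and leaving out each library were alternatives.

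Members and lists were chosen with earlier results of these data known. Named members are every tested H1 gene with a mean of at least 0.2 CPM and, in each other family, the 4 tested members of smallest p and the 2 of highest mean CPM. In each other list at most the 4 tested genes of smallest p were named. The 3 members just inside and the 3 rows just outside the count minimum were named too. H1f10, H1f4, H1f0, H3c1, H2bc1, H2bc6, H2bc13, H2bc23, H2bc24, Malat1, Rn18s-rs5 and Epb42 were named outside this rule, after their values were seen. So were H3f3a, H3f3b, H4f16, Rnu12, Mki67, Ccne2, Birc5 and Chaf1b. Symbols were matched to RefSeq (GRCm38.p6) and GENCODE M21 (GRCm38) for 47 of 48 members, and promoters come from RefSeq. Because the counts use GRCm39, no coordinate of the 2 builds was mixed, and lengths and sequences describe the models and not the counting. The stem-loop was searched in transcripts as a 16-base element of that consensus. List genes with no row in the table were not analysed here.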

Additional observations from a re-analysis of the deposited data

How the results depend on the processing

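No histone gene was called under any of the alternatives run (other scalings, filters, tests, the replicate block, each library left out, and minimums of 10, 50 and 100 summed counts). The median log2 fold change of the tested members, -0.35, was -0.12 with library totals and -0.21 over the 10 members that reach 1 CPM on average, and it ranged from -0.37 without PP-MP 3 to -0.26 without control 3 when each library was left out. Of 240 values of the 18 named members under alternatives, 235 kept their direction and their side of the threshold. The other 5 changed sign: with library totals H1f2 had 0.11, H1f3 0.11 and H2bc4 0.052. When each library was left out, H1f2 ranged from -0.19 without control 3 to 0.021 without control 1, and H3c15 from -0.12 without PP-MP 2 to 0.49 without PP-MP 3. Leaving out control 2 moved H2ac20 to -0.49, H2ac24 to -0.31, H4c1 to -0.55, H4c4 to -0.29 and Eri1 to -0.15, leaving out control 1 moved H2bc21 to 1.08, H4c9 to -0.13 and H2ax to -0.19, leaving out control 3 moved H2bc4 to -0.06, H2bc8 to -0.13 and H2bc22 to -0.26, and leaving out PP-MP 1 moved H1f3 to -0.04 and H2ac14 to -0.53. Among genes of the processing, variant, chaperone, S-phase and tail-less RNA lists edgeR called 0 of 106 and DESeq2 19 of 104. DESeq2 also called 6 of the cell markers, and it called 4.26% of all genes. The cause was not tested. Over all genes edgeR called 2, and 92 without control 2. The replicate numbers gave correlations of deviations of -0.07, -0.09 and 0.05 between same-numbered libraries, and 1 of 3 controls correlated best with its own number, so the numbers were not used as pairs. With the replicate block 0 members were called, the median was -0.34, and 0 genes of all were called. The filter on low counts left out 10 members with 28 to 58 counts, and the interval of 27 of the tested 38 reached beyond 2-fold.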
